A study of Mus musculus with 18 samples.

Results

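Progression from a cystic ovary to a granulosa cell tumour was examined in CF-1 mice that carry the transgene named LHCTP in the labels and hypersecrete luteinizing hormone (LH). The tumour, transgenic CF-1 ovary of 5 months, was set against cystic transgenic CF-1 ovary of 2 months. These are separate samples, and no animal was followed over time. Both carried the transgene, so age and pathology differed and genotype did not. Each side had 1 array of each of 2 oligonucleotide chip types, A and B, which made 4 arrays of the 18 in the series. The other 14 arrays, 7 per chip type, gave the range for each gene. They came from CF-1 wild-type ovaries at 2 and 5 months, a transgenic CF-1 ovary at 5 months treated with hCG (chorionic gonadotropin, a ligand of the LH receptor), and CF-1xC57BL/6 hybrids. The hybrids were wild type at 2 and 5 months, transgenic and cystic at 2 months, and transgenic with a luteoma at 5 months. The title and source of the tumour array on chip B give 5 months and its description gives 2, and the title was followed. The labels name no number of animals and no pooling. No condition had a second array of a chip type, so no difference below has a replicate check or a p-value.

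LH acts on theca, mature granulosa and luteal cells of the ovary through a receptor that raises cyclic AMP. The signal leads to uptake and synthesis of cholesterol, its transfer into mitochondria by the protein of Star, and its conversion to progesterone, androgens and estrogens. Granulosa cells surround the oocyte, respond to follicle-stimulating hormone, and make inhibins, activins and anti-Müllerian hormone. After ovulation they turn into luteal cells, which make progesterone. In the LHCTP line, as known from earlier work, a bovine LH beta subunit lengthened by a peptide of the hCG beta subunit is made in pituitary gonadotropes under a gonadotropin alpha subunit promoter, so the ovary is exposed to the hormone and is not itself the target of the transgene. The study set out to find transcripts that accompany granulosa cell tumorigenesis under this exposure.

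Among the genes that were lower in the tumour, those of cholesterol synthesis form the group best known to share promoter elements, and 3 of their promoters are shown for that reason. Sterol regulatory element binding proteins (SREBPs) bind sterol response elements near such genes and act together with NF-Y, which binds CCAAT boxes. Each window runs from 250 bases before to 50 bases after the transcription start, 5′ to 3′ on the gene's strand, in the RefSeq table of mouse assembly GRCm38.p6. The windows lie at chr13:119690101-119690400 (plus strand) for Hmgcs1, which encodes HMG-CoA synthase, at chr13:8885356-8885655 (plus strand) for Idi1, which encodes isopentenyl diphosphate isomerase, and at chr8:122443373-122443672 (minus strand) for Mvd, which encodes mevalonate diphosphate decarboxylase. Capitals mark the SREBP core CACNCCAC and the CCAAT box, on either strand (ATTGG is CCAAT on the other strand).
Hmgcs1: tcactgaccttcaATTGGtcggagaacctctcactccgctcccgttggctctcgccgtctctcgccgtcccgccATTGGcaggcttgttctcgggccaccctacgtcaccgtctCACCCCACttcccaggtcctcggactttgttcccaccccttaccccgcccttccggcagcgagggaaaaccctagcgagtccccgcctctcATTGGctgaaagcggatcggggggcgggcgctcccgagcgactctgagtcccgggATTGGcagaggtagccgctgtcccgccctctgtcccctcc
Idi1: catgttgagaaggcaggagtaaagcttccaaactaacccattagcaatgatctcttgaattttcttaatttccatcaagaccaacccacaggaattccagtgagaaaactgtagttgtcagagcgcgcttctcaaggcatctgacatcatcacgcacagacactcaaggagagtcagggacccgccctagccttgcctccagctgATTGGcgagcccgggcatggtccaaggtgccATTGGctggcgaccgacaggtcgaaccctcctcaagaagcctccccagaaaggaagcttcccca
Mvd: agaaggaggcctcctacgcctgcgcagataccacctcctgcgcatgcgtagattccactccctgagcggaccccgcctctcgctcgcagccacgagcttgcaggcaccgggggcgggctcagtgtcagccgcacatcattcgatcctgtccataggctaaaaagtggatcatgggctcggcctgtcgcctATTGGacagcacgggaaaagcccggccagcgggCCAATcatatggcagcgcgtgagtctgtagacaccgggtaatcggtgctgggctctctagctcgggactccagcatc
The Hmgcs1 window held 1 SREBP core and 4 CCAAT boxes, and those of Idi1 and Mvd held 2 CCAAT boxes each and no SREBP core. Of the 16 tested genes of the cholesterol list, 12 matched the table, with 16 promoters. A CCAAT box stood in 8 of these promoters and the SREBP core in 1, while 37.4% and 6.24% of all 32851 promoters of the table held them. These letters describe the windows only, and no binding was measured.

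Levels are given as scaled intensities, in the arrays' units, before a floor was set. The floor, below which a probe set was treated as not measured, was 183.8 units on chip A and 290.7 units on chip B, and the detection limit was 2 floors. Log2 differences are tumour minus cystic, taken after values under the floor had been raised to it. A probe set counted as changed when the arrays differed at least 3-fold and the brighter one stood at or above the detection limit. By this rule, 157 of the 6408 probe sets tested (2.45%) were higher in the tumour and 224 (3.5%) were lower. The excess of lower over higher depended on the scaling. Higher probe sets made up 41.2% of those counted, and 51.7% after a loess correction for level (184 higher, 172 lower). On chip A 94 were higher and 159 lower, and on chip B 63 and 65. Among 3916 genes with 1 named probe set each, 83 were higher (2.12%) and 143 lower (3.65%), and the median log2 difference was -0.01. These shares are the background for the counts given for each gene list below. Of 57 genes with several tested probe sets and at least 1 of them counted, the probe sets differed in the same direction, by any amount, in 52. In most of these genes another probe set did not pass the rule, as for Anp32a (-2.50 and -0.32).

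**Figure D1:**
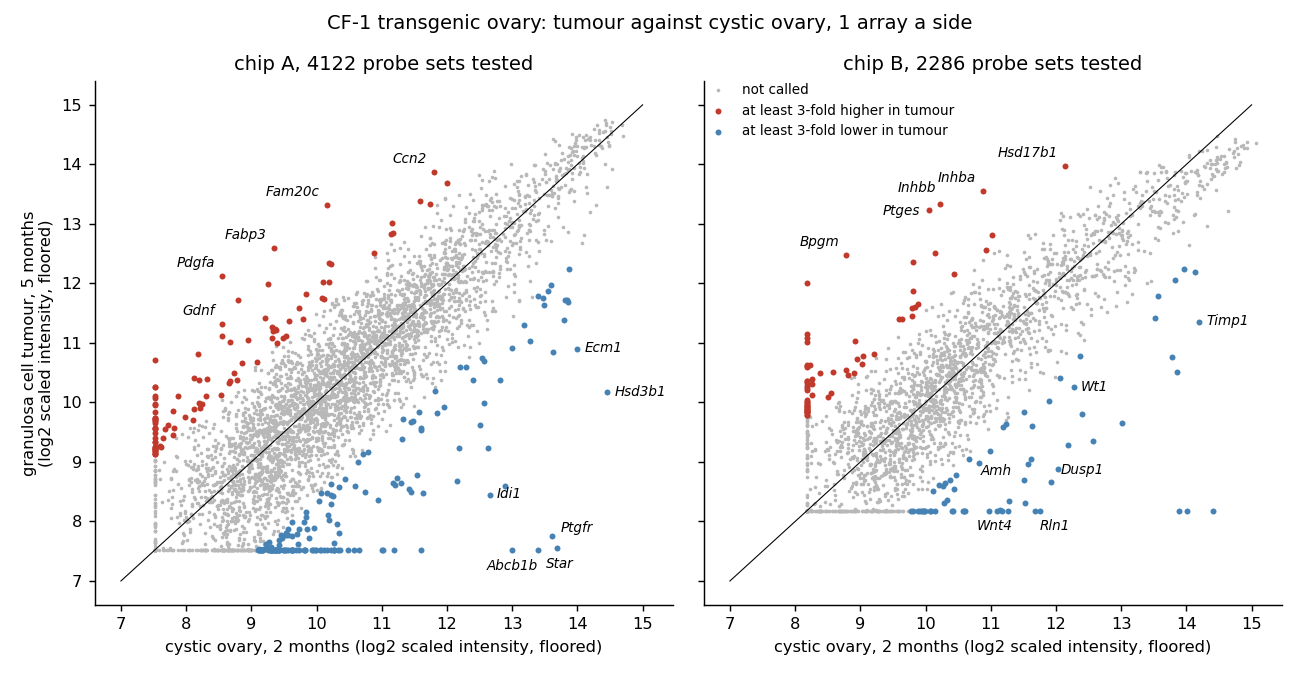
Each point is 1 probe set tested, with its log2 scaled intensity (floored) in the cystic ovary on the x axis and in the tumour on the y axis, chip A at left and chip B at right. Red points are the 157 probe sets that passed the 3-fold rule as higher in the tumour and blue points the 224 that passed as lower; points along the lower edge lay at the tumour's floor and those along the left edge at the cystic ovary's.

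The same rule was applied to 3 pairs of single arrays of 5 and 2 months that share no array with the tumour comparison. In CF-1 wild-type ovaries 120 probe sets were higher at 5 months (1.87%) and 71 lower (1.11%). Hybrid wild-type ovaries had 31 higher (0.484%) and 42 lower (0.655%), and the hybrid luteoma against the hybrid cystic ovary had 104 higher (1.62%) and 100 lower (1.56%). The tumour comparison had the most in each direction, although 1 array a side leaves the spread between animals unknown. The CF-1 wild-type pair had 24 higher probe sets in common with it, which was 15.3% of the tumour's, and 24 of that pair's own 120. It had 29 lower ones in common, 12.9% of the tumour's and 40.8% of that pair's. In that pair 1 that was higher and 9 that were lower in the tumour went the opposite way. With the hybrid wild-type pair 2 higher were in common (1.27% and 6.45%) and 13 lower (5.80% and 31.0%). There 3 that were higher and 2 that were lower in the tumour went the opposite way. With the hybrid transgenic pair 23 higher were in common (14.7% and 22.1%) and 17 lower (7.59% and 17.0%), and 4 that were higher and 9 that were lower in the tumour went the opposite way there. After the CF-1 wild-type difference was subtracted, a step chosen after the data were seen, 59 of the 157 (37.6%) and 105 of the 224 (46.9%) still passed 3-fold.

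The tumour was more often the array that stood apart. Among the higher probe sets, it lay outside the range of the other 7 arrays in 120 of 157 (76.4%), and the cystic ovary in 34 (21.7%). Among the lower ones these numbers were 155 (69.2%) and 79 (35.3%) of 224. Over all probe sets tested, the tumour lay outside in 41.1% and the cystic ovary in 21.8%. Set against the 4 wild-type ovaries alone, 44 of the 83 higher genes had the cystic ovary inside their range and the tumour outside it, and 7 the reverse. For the 143 lower genes these counts were 62 and 18. Both ovaries lay outside that range in 26 of the higher and 56 of the lower genes. The same shares over all genes tested were not worked out, so these counts have no background.

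On 15 control probe sets laid out for the opposite strand, the tumour arrays followed those of the CF-1 wild type of 5 months (r = 0.98 on chip A and 0.95 on chip B) and of the luteoma (0.98 and 0.97) more closely than those of the cystic ovary (0.83 and 0.75). The tumour and cystic arrays therefore differed in a technical profile. The older and younger arrays of the other pairs differed in it too. On chips A and B, r was 0.70 and 0.68 in the CF-1 wild-type pair. It was 0.78 and 0.59 in the hybrid transgenic pair, and 0.59 and 0.83 in the hybrid wild-type pair. The luteoma arrays followed those of the older CF-1 wild type closely (0.99 and 0.95). The part of this profile in the results was not tested, nor its part in the probe sets shared between pairs or in the wild-type subtraction. The 3′ to 5′ ratio of the actin control was 2.46 in the tumour and 2.40 in the cystic ovary on chip A, and 2.09 and 2.40 on chip B.

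Star, a steroid synthesis gene, was among the genes with the largest differences. Of 9 tested, 6 were lower and 3 higher, with a median log2 difference of -0.83, and 3 were counted as lower and 1 as higher. Star read 188 units in the tumour and 13159 units in the cystic ovary, while the other 7 ovaries lay between 11263 and 22157 units (median 17465). The tumour was the only ovary without a strong signal, and its log2 difference of -6.13 is imprecise because 188 units lie just above the floor. Hsd3b1, which encodes the enzyme that makes progesterone from pregnenolone, read 1150 units in the tumour and 22428 units in the cystic ovary, a log2 difference of -4.29. Both hybrid transgenic ovaries and the hybrid wild type of 5 months were also low for this probe set, at 1664 to 3612 units, so a low Hsd3b1 reading was not particular to the tumour. Cyp17a1, which encodes the enzyme of androgen synthesis in theca cells, read 1727 and 5915 units (log2 difference -1.78), against 3968 to 9578 units in the other 7, and the tumour was again the lowest.

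The first enzyme of the pathway changed less. Cyp11a1, which encodes the side-chain cleavage enzyme, read 10175 units in the tumour and 19877 units in the cystic ovary, a 1.95-fold difference that did not pass the rule, although the tumour was the lowest of all ovaries. Nr5a1 and Nr5a2, which encode the nuclear receptors SF-1 and LRH-1 that drive these genes, read 5524 and 16653 units in the tumour and 4262 and 12917 units in the cystic ovary. Neither passed the rule, and both log2 differences were 0.37. Hsd17b1, which encodes the granulosa cell enzyme that makes estradiol from estrone, went the other way. It read 16047 units in the tumour and 4500 units in the cystic ovary (log2 difference 1.83), with 2547 to 5765 units in the other 7, so the tumour lay above all other ovaries.

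Genes of luteal cells and of the LH response were lower as well. Of 12 tested, 10 were lower and 2 higher (median log2 difference -1.86), with 6 counted as lower and 0 as higher. The list shares 4 members with steroid synthesis, and without them 7 of 8 were lower, at the same median of -1.86. Ptgfr, the receptor through which prostaglandin F2-alpha ends the life of the corpus luteum, read 217 units in the tumour and 12511 units in the cystic ovary, and at least 7675 units elsewhere. Its log2 difference of -5.85 is again imprecise, since the tumour read under the detection limit. Timp1, an inhibitor of matrix metalloproteinases made in luteal tissue, read 2618 and 18704 units (log2 difference -2.84), and 7461 to 17764 units in the other 7. Ephx2, the soluble epoxide hydrolase, read 1849 and 12645 units (-2.77), and at least 9395 units elsewhere. In all of these the tumour lay below the other 8 ovaries and the cystic ovary lay among or above the remaining 7. Sgk1, a kinase induced by gonadotropins, read 2083 and 9883 units (-2.25), and it was also lower at 5 months in the CF-1 wild type, at 3731 against 10346 units.

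The genes for the LH receptor (Lhcgr), the follicle-stimulating hormone receptor (Fshr) and aromatase (Cyp19a1) were not analysed here. In the list of cyclic AMP, G protein and gonadotropin signalling, 12 of 23 genes were higher and 11 lower, with a median of 0.01, and Sgk1 was the only member counted by its brightest probe set. A second probe set of Prkar1b, a regulatory subunit of protein kinase A, was counted as higher, at 1622 against 463 units (1.81), while its brightest one gave 0.67. Prkaca, a catalytic subunit of protein kinase A, read 2420 units in the tumour and 6290 units in the cystic ovary (2.6-fold, not counted). In bulk RNA of whole ovaries, fewer cells of a type and less transcript per cell cannot be told apart.

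Cholesterol synthesis and uptake genes were lower almost throughout. Of 16 tested, 14 were lower and 2 higher, with a median log2 difference of -1.17, and 6 were counted as lower and 0 as higher. The medians of the same list were 0.12 in the CF-1 wild-type pair, -0.21 in the hybrid wild-type pair and 0.00 in the hybrid transgenic pair. Idi1 and Sqle, the latter encoding squalene epoxidase, were the lowest members. Idi1 read 349 units in the tumour and 6449 units in the cystic ovary (log2 difference -4.21), and 2024 to 5974 units in the other 7, so that the cystic ovary was the highest and the tumour the lowest of the series. Sqle read 411 and 4556 units (-3.47), with 1343 to 4555 units elsewhere. Hmgcs1, which commits acetyl units to the pathway, read 2678 and 14163 units (-2.40), with 9655 to 17619 units elsewhere, and its second probe set differed in the same direction. Dhcr7, which makes cholesterol in the last step, read 327 units in the tumour and 1973 units in the cystic ovary (-2.59), and the CF-1 wild type of 5 months was the highest at 4468 units. Idi1 and Sqle were also lower at 5 months in the CF-1 and hybrid wild types (-0.73 and -0.75, -0.59 and -1.04). There Dhcr7 was higher (1.31 and 1.14), and Hmgcs1 was mixed (0.13 and -0.21). Mvd read below the floor in the tumour and 1005 units in the cystic ovary, at least 5.47-fold lower. The wild types of 5 months in both strains and the hybrid wild type of 2 months also lay under the floor for Mvd. Lipe, a lipase that frees stored cholesterol and fat, read 234 and 922 units (-1.98). Idi1, Dhcr7 and Lipe read under the detection limit in the tumour, so their log2 differences are imprecise. The hybrid wild types were also low for Dhcr7 (512 units at 2 months) and Lipe (271 units at 5 months).

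Uncounted members were also lower in most cases. Lss, which closes the sterol ring, read 1360 units in the tumour and 3546 units in the cystic ovary (-1.38), and a second, dimmer probe set of it was counted, at 400 and 2526 units (-2.66). Ebp, a sterol isomerase, read 699 and 1597 units (-1.19). Scarb1, the receptor that takes up cholesterol from high-density lipoprotein, read 12525 units in the tumour and 18022 units in the cystic ovary, and Lrp1, a lipoprotein receptor, read 5853 against 4017 units. Neither passed the rule.

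**Figure D2:**
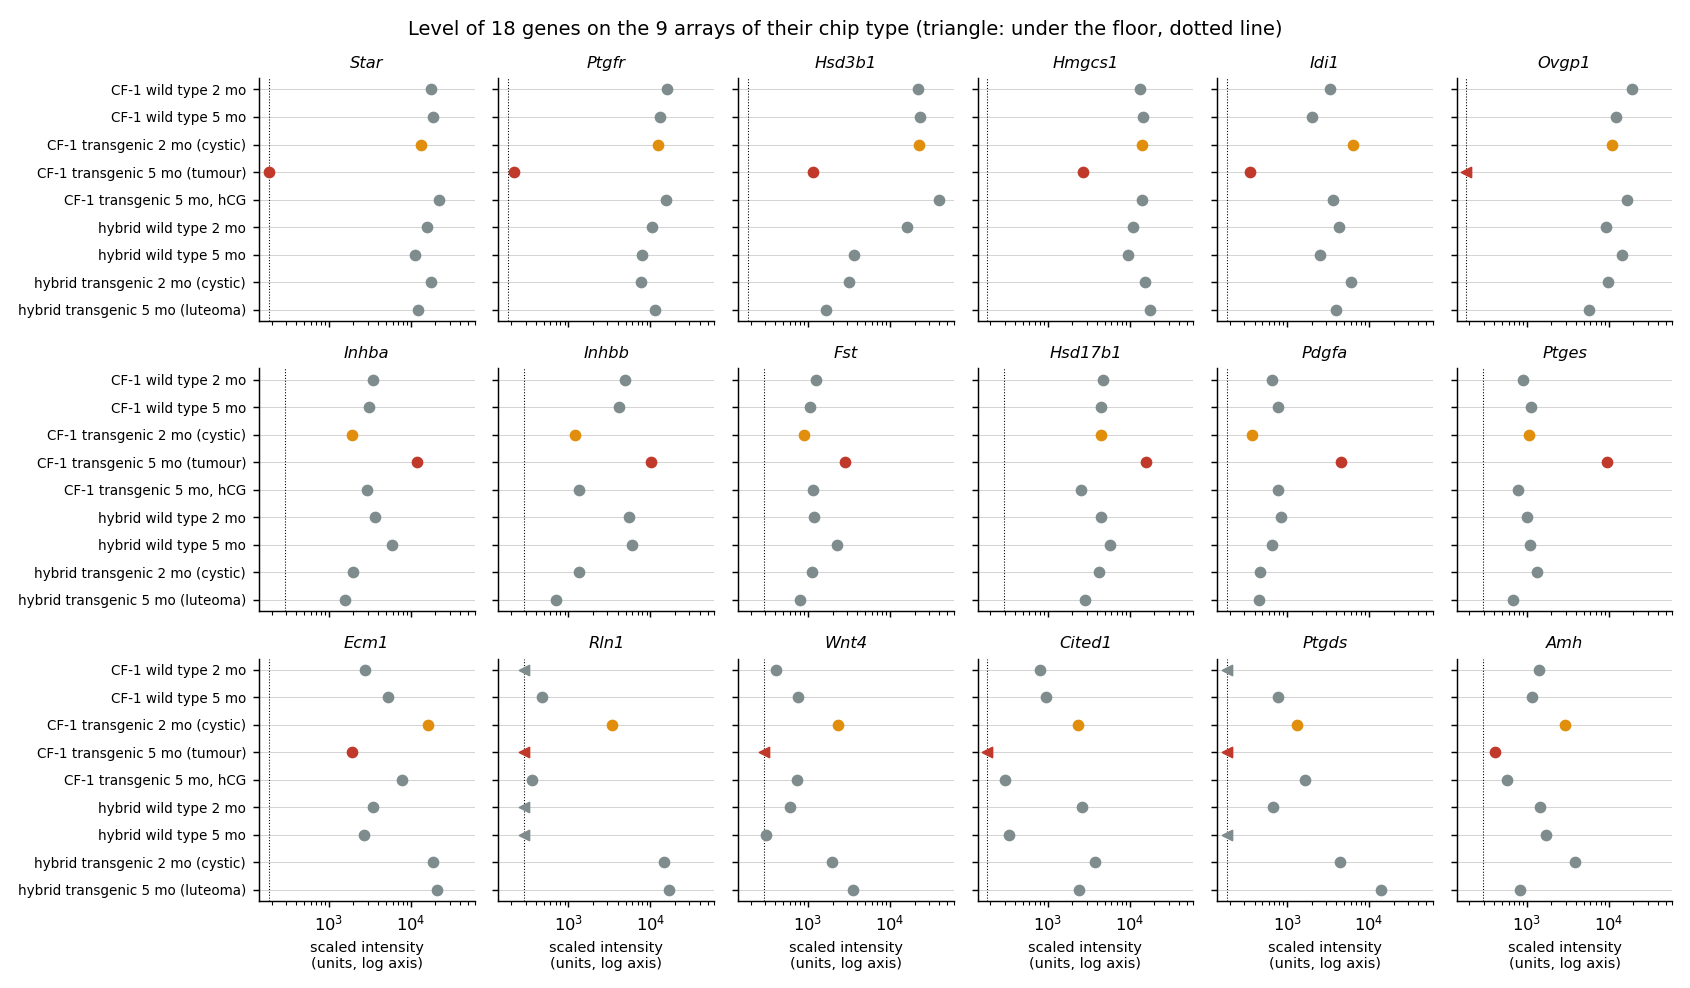
Scaled intensity (log axis, units) of 18 genes on the 9 arrays of their chip type, with the CF-1 cystic ovary in orange, the tumour in red and the other 7 ovaries in grey; triangles are values under the floor (dotted line), drawn at it. In the top row the tumour lies below the other ovaries for Star, Ptgfr, Hmgcs1 and Idi1, in the middle row it lies above them, and in the bottom row the cystic ovary exceeds both CF-1 wild types and the tumour is lowest or under the floor.

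Granulosa cell markers were mixed. The list did not settle the label of granulosa cell tumour. In the tumour Inhba, Inhbb, Fst and Hsd17b1 lay above the other 8 ovaries, and Amh and Wt1 lay below them. Inha and Nr5a2 were well measured in both the tumour and the cystic ovary, and Foxl2 was not analysed here. Of 15 tested, 9 were higher and 6 lower (median log2 difference 0.37), with 4 counted as higher and 2 as lower. The median of the 13 members not shared with the steroid synthesis list was 0.08. The 4 counted as higher were Inhbb, Inhba, Fst and Hsd17b1. Inhbb, which encodes the activin and inhibin subunit beta B, read 10279 units in the tumour and 1190 units in the cystic ovary (log2 difference 3.11). All 4 wild types lay between, at 4135 to 5987 units, and the hybrid cystic ovary, the luteoma and the hCG-treated ovary lay at 711 to 1331 units. The cystic ovary was thus at least 3-fold below every wild type, and the tumour above them. Inhba, the beta A subunit, read 12028 and 1895 units (2.67), with 1562 to 5891 units elsewhere, and showed the same order of tumour, CF-1 wild types and cystic ovary. Fst, the activin-binding protein follistatin, read 2804 and 890 units (1.66), with 797 to 2234 units elsewhere.

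Inha, the alpha subunit shared by the inhibins, read 14779 units in the tumour and 15428 units in the cystic ovary, a 1.04-fold difference that did not pass the rule. Gata4, a transcription factor of granulosa cells, and Tnni3, a troponin gene listed with the granulosa markers, read 1494 against 639 units and 5983 against 2246 units, and neither passed the rule. The 2 counted as lower were Amh and Wt1. Amh, anti-Müllerian hormone, read 415 units in the tumour and 2916 units in the cystic ovary, while the 4 wild types lay at 1157 to 1704 units and the hybrid cystic ovary at 3913 units. Both cystic ovaries stood above all wild types and the tumour below all ovaries, with a log2 difference of -2.81 that is imprecise at the low end. The luteoma (837 units) and the hCG-treated ovary (576 units) also lay below every wild type. A low Amh reading was thus not particular to the tumour. Wt1, a transcription factor of early granulosa and surface cells, read 1220 and 4948 units (-2.02), with 3611 to 5767 units elsewhere, and a second Wt1 probe set gave -2.23.

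In the wider list of activin, transforming growth factor beta and bone morphogenetic protein genes, 8 of 20 were higher and 12 lower (median -0.09), with 3 counted in each direction. The higher ones were Inhbb, Inhba and Fst. The lower ones were Amh, Tgfb3, a ligand at 197 against 597 units, and Tgfbi, a matrix protein induced by transforming growth factor beta, at 438 against 2979 units (log2 difference -2.77). Tgfbi read at least 1254 units in the other 7 ovaries. The receptor Acvr2a and the signal transducer Smad1 read 370 and 714 units in the tumour and 796 and 1201 units in the cystic ovary, and did not pass the rule. A second probe set of Smad4, the partner of the other Smads, was counted as higher (1.66), and its brightest one gave 0.54.

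A set of genes that stood high in the cystic ovary was low in the tumour. Taking genes at least 3-fold above all 4 wild types in the CF-1 cystic ovary, a rule chosen after the data were seen, 6 were found. Of these Ecm1, Rln1, Wnt4 and Serpina6 were at least 3-fold lower in the tumour, while Alas2 (798 against 1560 units) and Reln (1051 against 757 units) were not counted. The selection used the cystic array, so a lower reading in any later ovary is favoured and no support is drawn from the count. Rln1, the peptide hormone relaxin, read 3450 units in the cystic ovary and 21.8 units, under the floor, in the tumour, at least 11.9-fold lower. It read at most 473 units in the wild types, and 14761 and 16825 units in the hybrid cystic ovary and luteoma, where it stayed high with age. Ecm1, a secreted matrix protein, read 16376 units in the cystic ovary and 1917 units in the tumour (log2 difference -3.09), 18508 and 21173 units in the hybrid cystic ovary and luteoma, and 2683 to 5204 units in the wild types. Wnt4, a signal needed for ovarian development and luteal function, read 2318 units in the cystic ovary and lay under the floor in the tumour, at least 7.97-fold lower, and a second probe set was also counted as lower. The hybrid cystic ovary and luteoma had 1976 and 3574 units of Wnt4. For these 3 genes the hybrid luteoma, the other end point at 5 months, read above every wild type, and the tumour did not. The hCG-treated CF-1 transgenic ovary of 5 months also did not exceed the wild types for Rln1 (359 units) and Wnt4 (727 units), and it did for Ecm1 (7922 units).

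Cited1, a transcriptional coactivator, read 2334 units in the cystic ovary and lay under the floor in the tumour, at least 12.7-fold lower, with 303 to 3818 units elsewhere. Ptgds, a prostaglandin D synthase, read 1317 units in the cystic ovary and lay under the floor in the tumour, at least 7.17-fold lower. In the hybrid it went from 4392 units in the cystic ovary to 14122 units in the luteoma. In the Wnt pathway list, Wnt4 included, 8 of 17 genes tested were higher and 8 lower with a median of 0.00, and Wnt4 was the only one counted.

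Several secreted growth factors were higher in the tumour, while the list as a whole was not. Of 31 growth factor and receptor genes tested, 17 were higher and 14 lower (median log2 difference 0.06), with 7 counted as higher and 1 as lower, beside 83 and 143 of all 3916 genes. Pdgfa, the A chain of platelet-derived growth factor, read 4489 units in the tumour and 376 units in the cystic ovary (3.58), with 449 to 853 units in the other 7. Gdnf, a neurotrophic factor made by Sertoli and some ovarian cells, read 2539 and 375 units (2.76), and at most 698 units elsewhere. Igfbp2, a binding protein of insulin-like growth factors, read 4045 and 610 units (2.73), and at most 1222 units elsewhere. For each of these the tumour lay above all other ovaries, while the cystic ovary lay among the other 7 or, for Pdgfa, just below them. Angpt2, an antagonist of the endothelial receptor Tek, read 7366 and 2303 units (1.68), with a second probe set at 1.24, and the next highest ovary was the hybrid cystic one at 2013 units after the CF-1 cystic ovary itself. Mia, a small secreted protein, read 5821 and 1132 units (2.36), and it also differed between the CF-1 wild types, at 1112 units at 5 months and 69.8 units at 2 months.

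The hedgehog ligands were both higher. Dhh, made by granulosa cells in the ovary and by Sertoli cells in the testis, read 2073 units in the tumour and 406 units in the cystic ovary (log2 difference 2.35), and at most 617 units elsewhere. Ihh, the other granulosa cell ligand, read 2049 and 674 units (1.60), and at most 794 units elsewhere. The member of the growth factor list that was lower, Tgfa, read below the floor in the tumour and 552 units in the cystic ovary. Growth factor receptors were counted in neither direction. Pdgfra, the receptor of Pdgfa, read 772 units in the tumour and 1007 units in the cystic ovary, and Fgfr1, a receptor of fibroblast growth factors, read 314 and 683 units.

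Genes shared with Sertoli cells and testis did not move together. Of 8 tested, 3 were higher and 5 lower (median -1.33). Gdnf and Dhh were counted as higher, while Abcb1b, Ptgds and Cldn11 were counted as lower. Abcb1b, a drug efflux transporter, read 8196 units in the cystic ovary and 22.9 units in the tumour, under the floor and at least 44.6-fold lower, against 2760 to 6971 units in the other 7. Cldn11, a tight junction protein, read below the floor in the tumour and 790 units in the cystic ovary, and also under the floor in both 2-month wild types.

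Matrix genes moved in both directions. Of 46 tested, 25 were higher and 21 lower (median log2 difference 0.06). Counted were 6 as higher and 3 as lower, beside 83 and 143 of all 3916 genes. Ccn2, a matricellular protein, read 14966 units in the tumour and 3580 units in the cystic ovary (2.06), and at most 4320 units elsewhere. Fn1, fibronectin, read 8249 and 2284 units (1.85) and at most 2457 units elsewhere, and its probe set on chip B gave 1.80. Thbs1, thrombospondin, read 5110 and 1200 units (2.09). Fbln2, a fibulin, read 6071 and 1949 units (1.64). The laminin chain Lamb1 read 2211 and 375 units (2.56), and Lama5 was at least 5.41-fold higher, at 993 units against a value under the floor. In each of these 6 the tumour was above the other 8 ovaries. Second probe sets of Hspg2 and Sdc4, both proteoglycan genes, were counted as higher (1.96 and 1.64), while their brightest ones gave -0.51 and 0.26. Fibrillar collagens did not pass the rule: Col1a1 read 4445 and 5191 units, Col1a2 6117 and 4914 units, and Col3a1 9218 and 17858 units.

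The lower matrix genes were Ecm1, Sdc1 and Tnc. Sdc1, a cell surface proteoglycan, read 2449 units in the cystic ovary and lay under the floor in the tumour, at least 8.43-fold lower, though its second probe set was not counted. Tnc, tenascin C, read 2476 and 327 units (-2.92). Among 30 matrix proteases and inhibitors the median was -0.06, with Timp1 counted as lower and Timp2 as higher. Timp2 read 1026 units in the tumour and lay under the floor in the cystic ovary, and it also was higher at 5 months in the CF-1 wild type, at 1246 against 143 units.

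**Figure D3:**
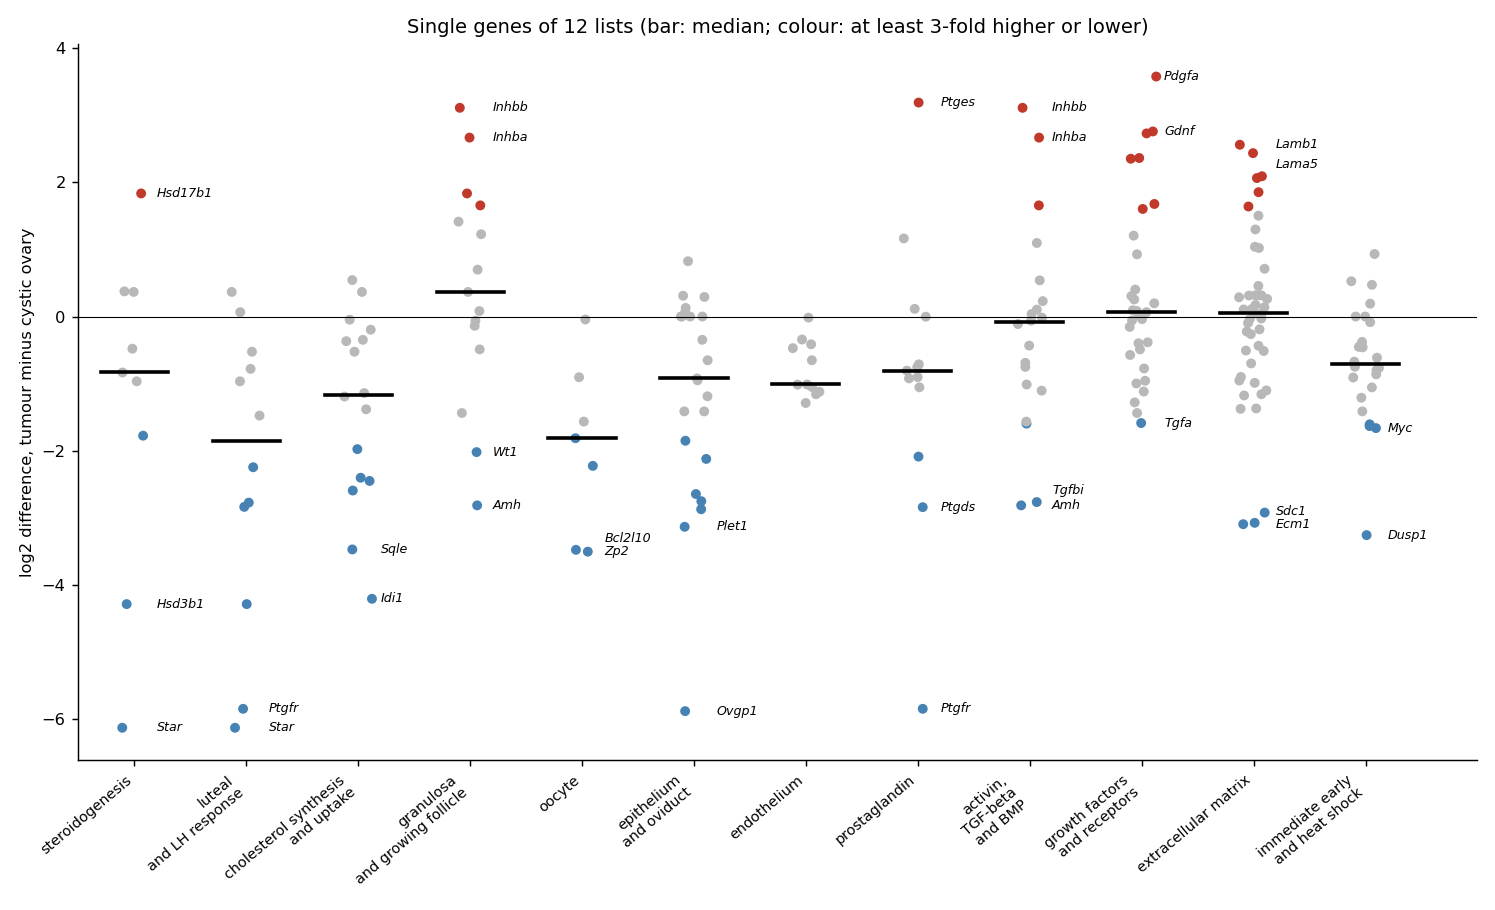
Log2 difference between tumour and cystic ovary for each tested gene of 12 lists, with red points counted as higher, blue points counted as lower, grey points not counted, and a black bar at the list's median. Cholesterol, luteal and oocyte genes lie mainly below 0, with medians of -1.17, -1.86 and -1.81, while matrix and growth factor genes scatter around medians of 0.06 with single genes far above.

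Most genes of the prostaglandin list were lower, and 1 synthase gene was much higher. The list also holds the annexin genes Anxa1, Anxa2 and Anxa5 and the leukotriene synthase gene Ltc4s. Of 13 tested, 3 were higher and 10 lower (median log2 difference -0.81). Ptges, the inducible prostaglandin E synthase, read 9639 units in the tumour and 1057 units in the cystic ovary (3.19), with 682 to 1349 units in the other 7 ovaries, so the tumour stood alone. Ptges2, another E synthase, read 1542 and 688 units and was not counted. Ptgfr, Ptgds and Anxa2 were counted as lower. Anxa2, annexin A2, read 3366 and 14308 units (-2.09), with 12160 to 17301 units elsewhere, and its probe set on chip B gave -1.77. The probe sets of the cyclooxygenase gene Ptgs2 stood under the detection limit on every array and were not tested. Ovulatory genes, which include Star, Tnc and Hif1a, had a median of -0.99, with 8 of 10 lower and 2 higher, and 2 counted as lower.

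Theca and interstitial genes had a median of -1.78, with 6 of 7 lower and 4 counted. That number rested on members shared with steroid synthesis, since the 3 others had a median of -0.01. One of the 3, Thbd, the surface protein thrombomodulin, read below the floor in the tumour and 1536 units in the cystic ovary, at least 5.28-fold lower, with 1140 to 1694 units in the other 7. Tcf21, a mesenchymal transcription factor, read 2542 and 2558 units.

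Oocyte genes were lower in the tumour and also lower at 5 than at 2 months in the CF-1 wild type. Of 7 tested, 7 were lower (6 of 7 after loess or quantile normalization), with 4 at least 3-fold lower and a median of -1.81. The list's median was -1.10 in the CF-1 wild-type pair, -0.83 in the hybrid transgenic pair and -0.11 in the hybrid wild-type pair. Zp2, a zona pellucida glycoprotein, read 2085 units in the cystic ovary and lay under the floor in the tumour, at least 11.3-fold lower, and it read 2349 and 447 units in the CF-1 wild types of 2 and 5 months. Bcl2l10, a survival gene abundant in oocytes, was at least 11.1-fold lower, and the CF-1 wild types read 2455 and 519 units. The summed level of the list, with floored values, was 2734 units in the tumour, 10800 in the cystic ovary, 12050 and 4330 in the CF-1 wild types of 2 and 5 months, and 4803 to 12530 in the other 5. Gdf9, an oocyte growth factor, still read 1223 units in the tumour against 3622 units in the cystic ovary.

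Epithelial and oviduct genes had their lowest summed level in the tumour. Of 23 tested, 14 were lower, 5 higher and 4 at the floor on both sides, with a median of -0.92, and 7 were counted as lower and 0 as higher. Ovgp1, the oviduct glycoprotein, read 10829 units in the cystic ovary, 109 units, under the floor, in the tumour and 5823 to 19169 units in the other 7, which made it at least 58.9-fold lower. Krt18 and Krt19, keratins of simple epithelia, read below the floor in the tumour and 1150 and 1238 units in the cystic ovary, and Plet1, a surface protein of epithelial progenitors, was at least 8.78-fold lower. Lsr, a lipoprotein receptor at epithelial junctions, read 374 and 2741 units (-2.87). In the tumour 13 of the 23 lay under the floor, and in the cystic ovary 6. The summed level was 20330 units in the tumour, 55380 in the cystic ovary and 40230 to 76220 in the other 7. Krt8, Wfdc2 and Krt7 were still read at 608, 1147 and 1004 units in the tumour. The part of adjoining oviduct in these readings was not tested.

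Endothelial genes were lower by smaller steps. All 11 tested were lower (8 of 11 with no scaling, 10 of 11 after loess and 8 of 9 after quantile normalization), with a median of -1.01, and 0 were counted. The median over the 4 other scalings ran from -0.83 to -0.56. Cdh5, vascular endothelial cadherin, read 632 units in the tumour and 1375 units in the cystic ovary, and 893 to 1888 units elsewhere. Eng, endoglin, read 4357 and 8793 units, and Cd34 499 and 1220 units. In the hybrid the same list was higher in the luteoma than in the cystic ovary, with a median of 0.65. The summed level was 9882 units in the tumour, 17720 in the cystic ovary and 9991 to 24270 in the other 7. Of the 11 genes, 3 were below the floor in the tumour and 0 in the cystic ovary. The part of oocytes, epithelium and vessels in the other differences was not tested.

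**Figure D4:**
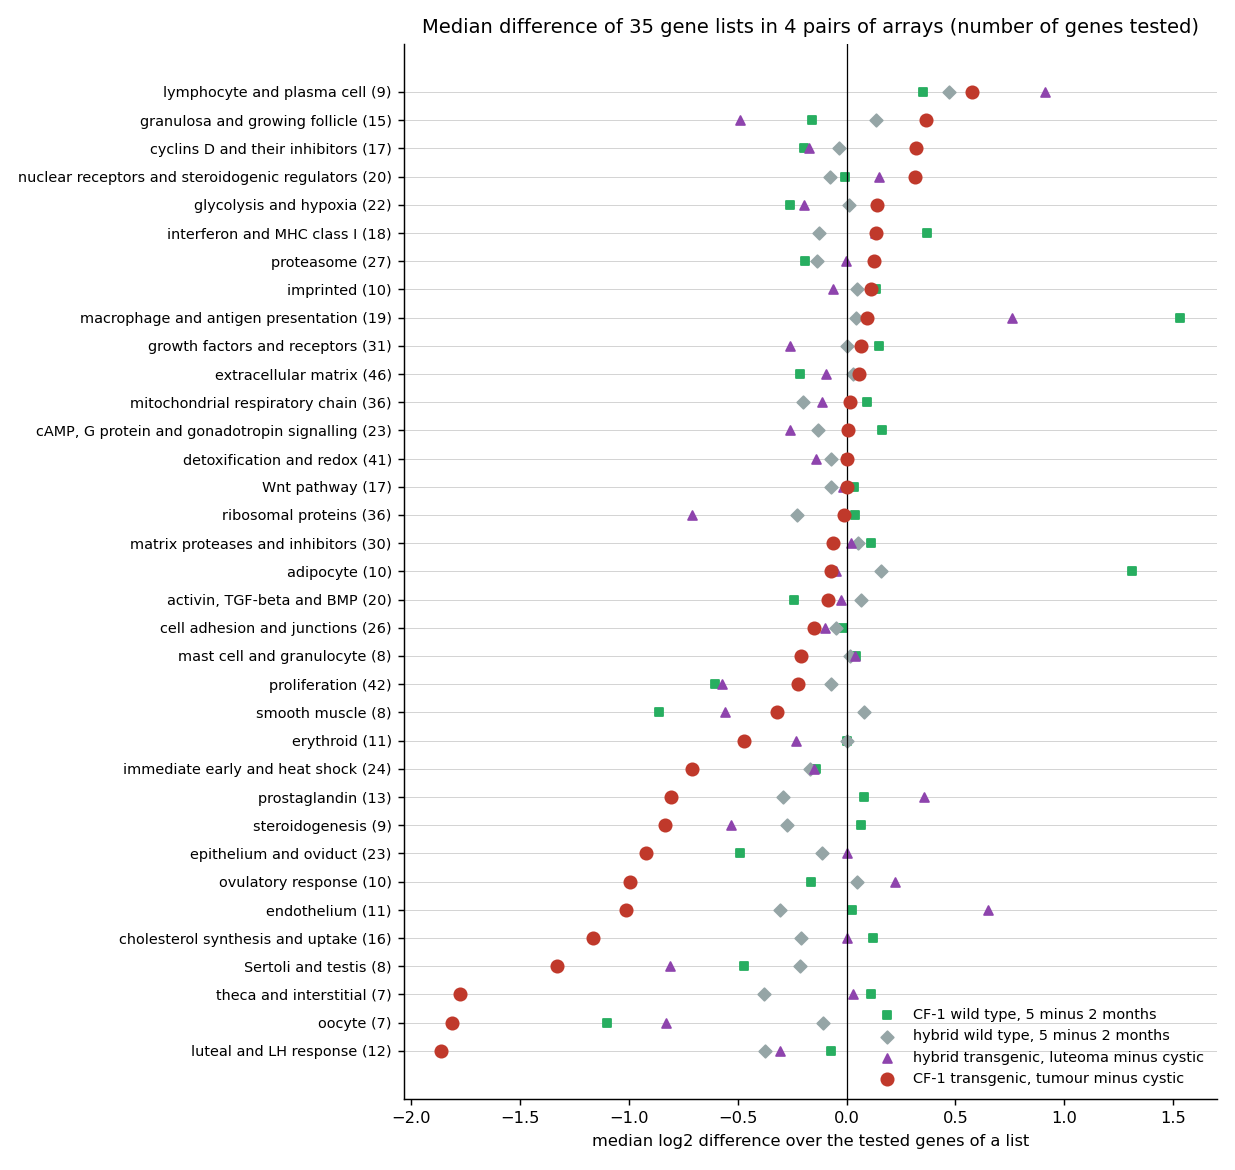
Median log2 difference of each of 35 gene lists (number of tested genes in brackets) for the tumour against the CF-1 cystic ovary (red circles) and for the 3 pairs of 5 and 2 months that share no array with it. The tumour comparison lies farthest below 0 for luteal (-1.86), oocyte (-1.81), theca (-1.78), Sertoli (-1.33), cholesterol (-1.17) and endothelial genes (-1.01), while macrophage genes, at 0.10, lie below the CF-1 wild-type pair at 1.53.

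Immune lists did not share a direction. The median over 19 macrophage and antigen presentation genes was 0.10, with 10 higher and 8 lower, against 1.53 in the CF-1 wild-type pair and 0.76 in the hybrid transgenic pair. Of the class II genes, H2-Aa read 422 units in the tumour and 1386 units in the cystic ovary (log2 difference -1.72). Cd74 read 860 and 2471 units and was not counted. For both, the cystic ovary itself lay below the other 7 ovaries, which read at least 2114 and 2743 units. For H2-Aa it was at least 3-fold below every wild type, the lowest of which read 4214 units. The 4 other H2-Aa probe sets ran from -0.92 to -0.48. The complement gene C1qa went the other way, at 2986 and 1314 units, and was not counted. Lymphocyte and plasma cell genes had a median of 0.58 over 9 genes, of which Iglc1 was counted as higher. Mast cell and granulocyte genes had -0.21 over 8, and interferon and class I genes 0.14 over 18, with 0 counted in both lists. In the CF-1 wild-type pair these 3 medians were 0.35, 0.04 and 0.37, and the differences between the pairs were not tested. A further probe set of the class I gene H2-D1 was counted as higher, at 837 units in the tumour and a value below the floor in the cystic ovary.

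Among 11 erythroid genes the median was -0.47, or 0.04 at the highest over the other scalings, and Bpgm was the only one counted. Bpgm, a bisphosphoglycerate mutase of red cells, had one of the largest increases, at 5718 units in the tumour and 440 units in the cystic ovary (log2 difference 3.70), and at most 686 units in the other 7. The size is imprecise, since the cystic ovary read under the detection limit. The globins did not follow, with Hba-a1 at 14588 and 24040 units and Hbb-b2 at 11481 and 18318 units. Adipocyte genes had a median of -0.07 over 10 genes, with Dgat2 and a second probe set of the fatty acid carrier Cd36 counted as higher and Lipe as lower, and smooth muscle genes -0.32 over 8, with Mylk counted as lower.

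Genes of cell division were, on the whole, not higher in the tumour. Of 42 proliferation genes 16 were higher and 26 lower (median -0.22), 0 were counted, and the medians of the CF-1 wild-type and hybrid transgenic pairs were -0.61 and -0.57. A second probe set of Top2a, a topoisomerase of dividing cells, was counted as higher, at 1011 against 304 units (1.73), and its brightest one gave 0.79. Mki67, which encodes the Ki-67 antigen of cycling cells, read 1405 units in the tumour and 1931 units in the cystic ovary, and Cks1b, a subunit of cyclin-dependent kinases, read 2990 and 1184 units. Among 17 cyclins D and their inhibitors the median was 0.32, with Myc and Gadd45a counted as lower, and also a second probe set of Ccnd3, at 315 against 1194 units. Ccnd2, the cyclin D of granulosa cells, read 1030 and 635 units and was not counted. Immediate early and heat shock genes had a median of -0.71, with 18 of 24 lower and 4 higher. Dusp1, a phosphatase of MAP kinases, read 408 units in the tumour and 3899 units in the cystic ovary (-3.26), with 1385 to 4621 units elsewhere. Hsp90aa1, a chaperone, read 4002 and 12408 units, and was 6411 and 12300 units in the CF-1 wild types of 5 and 2 months.

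Further genes with large differences belonged to none of these groups. Fam20c, a kinase of secreted proteins, read 10242 units in the tumour and 1143 units in the cystic ovary (3.16), and at most 1368 units elsewhere. Fabp3, a fatty acid binding protein, read 6184 and 650 units (3.25), but 2081 to 6735 units in the other 7, so that here the cystic ovary was the array that stood apart. Tead2, a transcription factor of the Hippo pathway that drives Ccn2 in many cells, read 1805 and 290 units (2.64, imprecise since the cystic ovary was under the detection limit), and at most 764 units elsewhere. Purb, a DNA-binding protein, read 3381 and 443 units (2.93), and 2170 and 328 units in the CF-1 wild types of 5 and 2 months, and the hybrid wild type of 5 months read 3344 units. Nnat, an imprinted proteolipid gene, read 4180 and 1174 units (1.83), and at most 1131 units elsewhere, while Ndn, another of the 10 imprinted genes tested, read 347 and 1199 units (-1.79). Cdh2, N-cadherin, read 2694 and 889 units (1.60), and Nectin2, an adhesion receptor, 1450 and 425 units (1.77), although the hybrid cystic ovary read 1314 units for it.

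Nuclear receptors and steroidogenic regulators had a median of 0.31, with 13 of 20 genes higher, Rxrb counted as higher and Wt1 as lower. Over the other scalings this median ran from 0.15 to 0.28. The other lists not yet described had medians closer to that of all genes. Several medians changed sign with the scaling (proteasome, mitochondrial, detoxification, ribosomal and adhesion genes, and above the protease, adipocyte, Wnt and cyclic AMP lists). Those other lists were glycolysis and hypoxia (0.14 over 22, with Bpgm higher and Adm lower), imprinted genes (0.11 over 10) and proteasome (0.12 over 27). They also were mitochondrial respiratory chain (0.02 over 36), detoxification and redox (0.00 over 41, with 3 lower) and ribosomal proteins (-0.01 over 36). The last was cell adhesion (-0.15 over 26, with 2 in each direction). Hif1a, the oxygen-regulated transcription factor of the hypoxia list, read 7882 units in the tumour and 3248 units in the cystic ovary, a 2.43-fold difference that was not counted, and 2430 to 4238 units in the other 7. A further 52 probe sets that were higher and 57 that were lower had no single gene name in the annotation. Among them, a probe set on chip B, singled out after its values were seen, read 15150 units in the cystic ovary and was below the floor in the tumour, at least 52.1-fold lower, with 5293 to 6580 units in the other 3 transgenic ovaries and 580 to 907 units in the 4 wild types.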

How the data were processed

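The deposited tables give 1 intensity per probe set and array, with negative values; the authors' software and scaling are not given in the sources used here. Intensities of each chip type were scaled to a common mean between the 2nd and 98th percentiles. For the floor, each array gave the size of its 5th percentile or its 25th percentile, whichever was larger, and the median of these was used. Tested probe sets reached 2 floors on at least 2 of the 9 arrays. Trimmed means before scaling were 907 to 1756 units on chip A and 542 to 921 units on chip B, and the number of arrays limits the precision. With 1 array a group no test across samples was made, and size rules took its place. A gene was represented by its probe set with the highest mean. Symbols came from GEO's platform annotation, updated by gene number (7561 entries had 1 symbol and 7544 were updated). Named were the 15 largest measured and 10 largest bounded differences in each direction, from which examples are given, and from each of 35 gene lists up to 5 members plus any counted one. The members and lists were chosen with earlier results of these data known. Nr5a1, Nr5a2, Inha, Gata4, Tnni3, Scarb1, Lrp1, Pdgfra, Fgfr1, Col1a1, Col1a2, Col3a1, Smad1, Acvr2a, Tcf21, Krt7, Krt8, Wfdc2, Eng, Mki67, Ccnd2, Hba-a1, Hbb-b2, Reln, Hp, Eya2, Serpina6, Ebp, second probe sets and the unnamed probe set were picked after their values were seen, where the rule did not name them. Lists were summarised by counts and medians. The calculation recovered all 200 changed probe sets of simulated data. These had been changed 5-fold at levels well above the floor. Recovery of 3-fold changes and of values near the floor was therefore not tested. The simulated noise was set by choice and not measured between replicate arrays, so it gives no rate of false calls for these data. Python 3.11.15 was used with numpy 2.4.6, pandas 2.3.3, statsmodels 0.14.6 (loess) and matplotlib 3.10.9.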

Additional observations from a re-analysis of the deposited data

Results flagged for a closer look

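Several differences between 5 and 2 months went one way in CF-1 transgenic ovaries (tumour against cystic) and the other way in hybrid transgenic ovaries (luteoma against cystic). Each rests on 1 array a side, and the difference between the strains was not tested. The median log2 difference of granulosa genes was 0.37 in CF-1 and -0.49 in the hybrid. Without the 2 members shared with the steroid synthesis list, the CF-1 median was 0.08. Ovulatory genes had medians of -0.99 and 0.22, genes of the prostaglandin list -0.81 and 0.36, and endothelial genes -1.01 and 0.65. With no filter on low values the CF-1 medians of the ovulatory and prostaglandin lists were 0.00 and -0.0015. Ihh, a hedgehog ligand, differed by 1.60 in CF-1 and -2.11 in the hybrid, where the luteoma read 55.0 units. Nnat, an imprinted gene, differed by 1.83 and -1.90. Ptgds, a prostaglandin D synthase, differed by -2.84 and 1.69.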

How the results depend on the processing

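Of the 381 probe sets counted, 310 were still counted the same way with no scaling, 310 after loess, 340 after quantile normalization, 368 with scaling at the 75th percentile, 291 with the brighter side at 4 floors and 183 with the floor doubled. The numbers moved with the floor. With the floor halved, 260 were higher and 394 lower, with it doubled 60 and 123, and with a floor of 20 units 767 and 1016. A 2-fold rule gave 491 and 687, and a 5-fold rule 30 and 76. With no scaling, which moved the median of all probe sets to -0.22 on chip A and 0.68 on chip B, 272 were higher. After subtraction of the CF-1 wild-type difference, an alternative chosen after seeing the data, 59 and 105 remained. With no filter on low values, which adds genes under the floor on both sides, list medians were -0.21 for steroid synthesis, -0.97 for theca, 0.00 for ovulatory genes, -0.18 for oocyte genes, 0.00 for Sertoli genes and -0.0015 for prostaglandin genes. With the brighter side at 4 floors they were -2.51 for luteal genes and -1.77 for epithelium. Of the other main counts and medians of these lists 127 stayed within 1.5 times. Among the remaining values, which include single genes, other pairs and lists near 0, 797 stayed and 133 moved. The erythroid median went from -0.47 to 0.04 and the proteasome median from 0.12 to -0.09 over the scalings. Among 94 named genes counted, 552 of 658 values stayed within that range. No paired analysis was possible because each group had 1 array of a chip type. Sizes for genes under the detection limit are limited by signal over background.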

Other observations

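Besides Ihh, Nnat and Ptgds, 8 genes were counted in opposite directions in the CF-1 and hybrid transgenic pairs, on single arrays and without a test of the difference. Serpina6, which encodes corticosteroid-binding globulin, read below the floor in the tumour and 1135 units in the CF-1 cystic ovary, and read 7759 units in the luteoma and 1648 units in the hybrid cystic ovary. Hp, the hemoglobin-binding protein haptoglobin, read below the floor in the tumour and 985 units in the CF-1 cystic ovary, and read 3623 and 969 units in the luteoma and hybrid cystic ovary. Eya2, a transcriptional coactivator, went the other way, at 2177 and 713 units in the tumour and CF-1 cystic ovary, while it lay under the floor in the luteoma and at 799 units in the hybrid cystic ovary. The others were Cd83, Eif4ebp2, Gzmc, Oprd1 and Slc6a8, each lower in the tumour and higher in the luteoma. For Eif4ebp2, probe sets differed in direction in the tumour comparison.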
